A study of Mus musculus with 3 samples.

Results

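Antiviral genes that are switched on by type I interferon were followed in mouse peritoneal macrophages exposed to hexavalent chromium. They were a list of 40 named genes of related function, chosen with earlier results of these data known. Of the 40, 39 had at least 1 probe, 67 probes in all, and 38 were well above background on all 3 arrays, out of 14555 genes detected on at least 1 array. The Oas1g probe was not well above background on any array, and no probe carried the name Xaf1. Herc5 in the list was measured by probes for Herc6, which carries Herc5 as a synonym, and Trim30 by probes for Trim30a.

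Type I interferons are secreted proteins that a cell releases after its sensors detect viral or bacterial nucleic acid or lipopolysaccharide. They bind the receptor chains IFNAR1 and IFNAR2, whose kinases JAK1 and TYK2 phosphorylate transcription factors, STAT2 among them. With IRF9 these bind a DNA element, the interferon-stimulated response element or ISRE, in front of the antiviral genes. Macrophages are both a source of interferon and strong responders to it, and lipopolysaccharide is among its inducers. Interferon gamma uses another receptor and acts through a different element, the gamma-activated site or GAS, and many genes answer to both kinds of interferon.

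The cells came from male Swiss albino mice aged 8 weeks, in groups of 10 animals, with 1 one-colour Agilent whole-genome array per group. All mice were given 125 µg lipopolysaccharide into the peritoneum on day 0, which draws macrophages there, so the control cells had met an interferon inducer too. On day 4 the control mice received 100 ng of the phorbol ester TPA alone, and the treated mice received it together with 35 or 70 nmol of hexavalent chromium. The peritoneum was lavaged for its cells 4 days after that. The protocol gives the doses as potassium dichromate and the sample labels as Cr(VI), and the control's agent label reads none although the protocol gives it TPA. The labels do not settle whether an array holds RNA of 1 animal or of a pool. With 1 array per group no difference has a replicate check, no test was possible, and each fold covers these arrays only. A single slide in 1 scan carried all 3 arrays, so slide position and group cannot be told apart.

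A level below is the log2 processed signal minus the array's 75th percentile, and a difference is between the levels of the same probe on 2 arrays. The error quoted is the scanner software's own, which leaves out the spread between animals. The share of the 41174 probes well above background was 49.0% for the control, 45.9% for 35 nmol and 45.1% for 70 nmol, and no probe of these genes was saturated. All 8 general macrophage markers were well above background on all 3 arrays, among them Adgre1, which encodes the F4/80 antigen, at 7.67 in the control, 7.71 at 35 nmol and 7.16 at 70 nmol.

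To show the DNA in front of the genes that differed most, stretches from 170 to 51 bases before the RefSeq start (GRCm38.p6) are printed below for the 6 genes that were at least 2-fold higher at 70 nmol than in the control. Capitals mark matches on either strand to the ISRE core, which is GAAA, then any 2 bases, then GAAA (TTTC, any 2 bases, TTTC when read on the other strand), and each line runs 5′ to 3′ along the gene's own strand. Ifit1 is at chr19:34640719-34640838 and Ifit3 at chr19:34583359-34583478, both on the plus strand. Isg15 is at chr4:156200869-156200988, Oas3 at chr5:120777710-120777829 and Rsad2 at chr12:26456503-26456622, all on the minus strand. For Ifit2, RefSeq has a pair of starts on the plus strand, with stretches at chr19:34550524-34550643 and chr19:34550918-34551037.
Ifit1: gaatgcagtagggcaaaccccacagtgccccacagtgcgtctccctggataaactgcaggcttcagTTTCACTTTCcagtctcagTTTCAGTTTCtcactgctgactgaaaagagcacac
Ifit3: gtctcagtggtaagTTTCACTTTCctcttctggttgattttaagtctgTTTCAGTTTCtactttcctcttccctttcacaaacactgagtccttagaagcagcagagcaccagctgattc
Isg15: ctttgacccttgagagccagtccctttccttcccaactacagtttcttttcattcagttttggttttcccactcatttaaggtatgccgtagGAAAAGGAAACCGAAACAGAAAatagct
Oas3: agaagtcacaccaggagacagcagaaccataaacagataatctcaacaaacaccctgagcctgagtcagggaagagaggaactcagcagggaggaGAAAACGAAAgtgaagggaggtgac
Rsad2: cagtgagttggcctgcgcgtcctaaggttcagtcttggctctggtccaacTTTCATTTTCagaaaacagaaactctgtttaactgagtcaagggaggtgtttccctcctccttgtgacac
Ifit2, upstream start: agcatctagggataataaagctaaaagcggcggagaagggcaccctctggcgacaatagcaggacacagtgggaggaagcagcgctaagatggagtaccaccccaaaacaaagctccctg
Ifit2, downstream start: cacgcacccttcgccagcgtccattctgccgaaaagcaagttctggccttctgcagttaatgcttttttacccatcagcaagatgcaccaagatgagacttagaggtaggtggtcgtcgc
The Isg15 stretch holds 3 overlapping matches, beginning at -78 from the start. Matches begin at -104 and -85 in Ifit1, -156 and -122 in Ifit3, -120 in Rsad2 and -75 in Oas3. These letters do not occur in either Ifit2 window, which holds instead a match to the GAS core TTCNNNGAA, beginning at -241 from the upstream start and so outside the printed stretch.

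Over windows from 250 bases before to 50 bases after the start, 14 of the 29 listed genes with a window held the ISRE core (48.3%), against 3.99% of 27025 genes and 3.44% of all 32851 windows. A longer core with a C after the second GAAA, which contains the shorter, was in 11 of 29 (37.9%), against 0.944% of genes. The GAS core, which reads the same on both strands, was in 9 of 29 (31%), against 9.55% of genes. Because the list was drawn up of genes known to answer to interferon, its share of ISRE cores does not bear on these arrays. Of the 6 genes at least 2-fold higher at 70 nmol, 5 held the ISRE core, and of the other 21 measured genes with a window 8 did. This split was not tested. No window was at hand for Oas2, Usp18, Dhx58, Zbp1, Ifi204, Mx1, Mx2, Parp9, Parp14, Ifi27 and Rtp4. A match is a run of letters and not a measured binding site, and a missing match says only that the letters are not in that window.

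**Figure D1:**
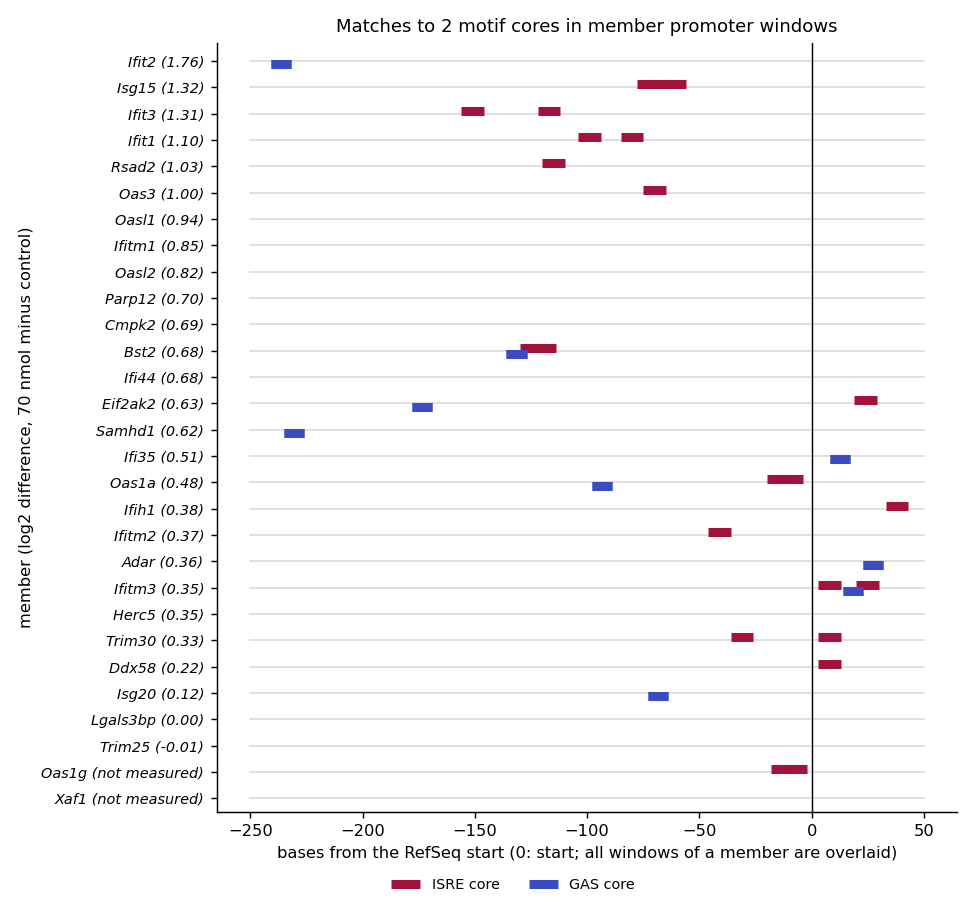
Each line is the window of 1 listed gene, from 250 bases before to 50 bases after the RefSeq start, ordered by the log2 difference between the 70 nmol and control arrays; red bars are ISRE core matches and blue bars GAS core matches. Red bars lie upstream of the start in Isg15, Ifit3, Ifit1, Rsad2 and Oas3, and Ifit2, at the top, has a blue bar only.

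At 70 nmol of chromium with TPA, the antiviral genes were higher than with TPA alone, nearly throughout the list. The median difference of the 38 measured genes was 0.57, against 0.04 for all 12540 genes measured on both arrays. The central part of the list ran from 0.36 to 0.82 (quartiles), and that of all genes from -0.14 to 0.20. Of the 38, 36 lay above 0, where 56.2% of all genes did. Ifi27 was counted there on a probe matched by symbol only, and its probe matched by accession gave -0.99. With probes named by accession only, 32 of 35 did, and with the smallest difference among a gene's probes 34 of 38. When the arrays were scaled on spike-in RNA, 28 of 38 stayed above 0, and the median of all genes moved to -0.32. In size, 35 of 38 differences exceeded the scanner error, in either direction, as did 40.7% of all genes.

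The genes at least 2-fold higher were Ifit2, Isg15, Ifit3, Ifit1, Rsad2 and Oas3, 6 of 38 or 15.8%, where 1.63% of all genes were. None was at least 2-fold lower, where 1.08% of all genes were. At 1.5-fold, 18 of 38 were higher (47.4%, all genes 5.55%), and at 3-fold only Ifit2 (all genes 0.391%). Oas3 sat just inside the 2-fold line at 1.00 and Zbp1 just outside it at 0.99. Scaling on spike-in RNA left Ifit2 alone past 2-fold, and normexp background correction left Ifit2, Ifit3 and Isg15.

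At 35 nmol the list as a whole lay where the other genes did. Its median difference from the control was 0.00, against 0.04 for all 12727 genes measured on both arrays. Above 0 were 18 of 38 (all genes 58.3%), or 2 of 38, Ifit2 and Ifit3, with spike-in scaling, which moved the median of all genes to -0.38. No listed gene was at least 2-fold higher or lower, where 1.12% and 0.299% of all genes were, and none reached 1.5-fold or 3-fold, where 2.96% and 0.401% were higher. The differences ran from -0.42 for Rsad2 to 0.49 for Ifit2, and 8 of 38 exceeded the scanner error, against 29.4% of all genes. Of these 8, Ifit2, Ifit3, Zbp1, Ifi204 and Ifitm1 were above the control and Rsad2, Parp12 and Isg20 below it.

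Both comparisons above share the control array. The comparison of the doses with each other does not use it. Between 70 and 35 nmol all 38 differences lay above 0, also with spike-in scaling. With normexp background correction 37 of 38 did, and likewise 37 with the mean over a gene's probes. With percentile scaling 50.3% of 12384 genes did. With probes named by accession only, 34 of 35 did, and the exception was Ifi27 at -0.82. The median of the 38 differences was 0.54, against 0.00 for all genes, and they ran from 0.04 for Lgals3bp to 1.45 for Rsad2. At least 2-fold higher at 70 nmol were Rsad2, Ifit2, Isg15, Oas3 and Parp12, 5 of 38 or 13.2%, where 0.921% of all genes were. No listed gene was 2-fold lower, where 0.719% of all genes were. At 1.5-fold 16 were higher (42.1%, all genes 3.67%) and at 3-fold none was (all genes 0.17%). The difference exceeded the scanner error in 36 of 38, against 33.2% of all genes.

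**Figure D2:**
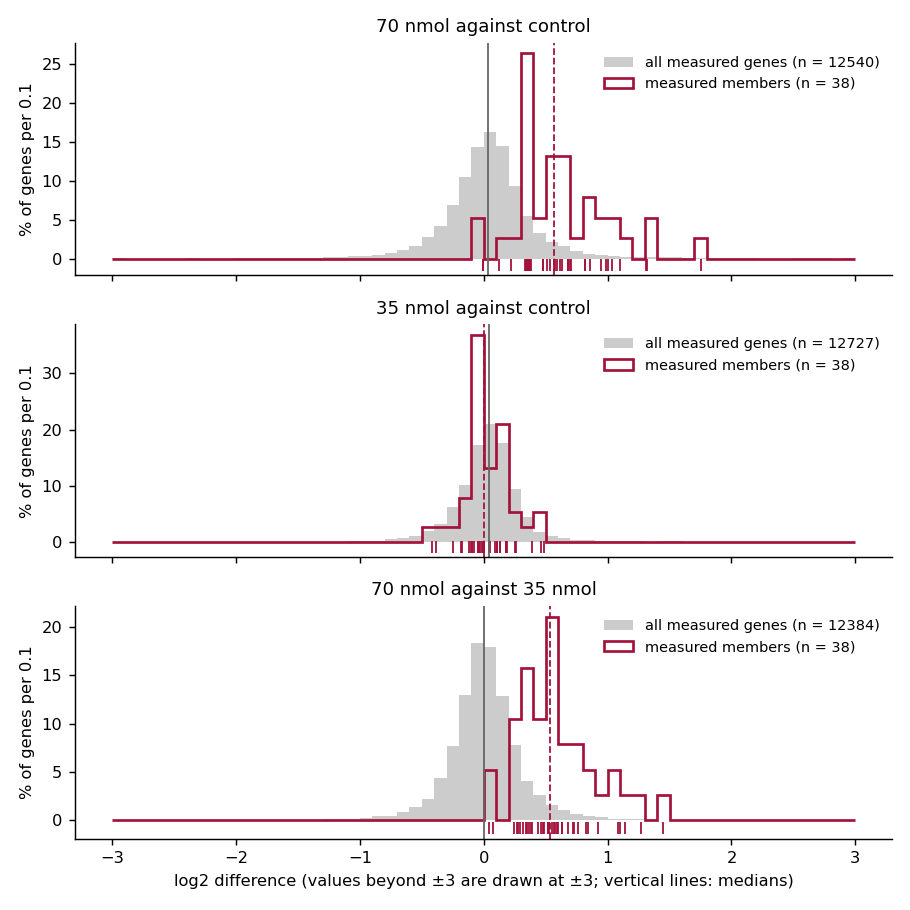
Histograms of log2 differences in the 3 comparisons, as a percentage of genes per step of 0.1; grey is all measured genes, the red outline the 38 listed genes, and vertical lines are medians. The red outline is displaced to the right of the grey in both comparisons with the 70 nmol array (medians 0.57 and 0.54) and lies over it at 35 nmol against control (median 0.00); with spike-in scaling the median of all genes is -0.32 at 70 nmol and -0.38 at 35 nmol against control.

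Across the 3 arrays, 36 of the 38 genes had their highest level at 70 nmol, and Trim25 and Lgals3bp had theirs in the control. None was highest at 35 nmol. A dimmer Ifi27 probe, the one matched by accession, was highest in the control. The lowest level was at 35 nmol for 20 genes and in the control for 18. Of 12324 genes measured on all arrays, 39.8% were highest at 70 nmol, 32.4% at 35 nmol and 27.8% in the control. The 1 array at 70 nmol thus stood above both others for most of the list, and the other arrays did not keep a common order.

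**Figure D3:**
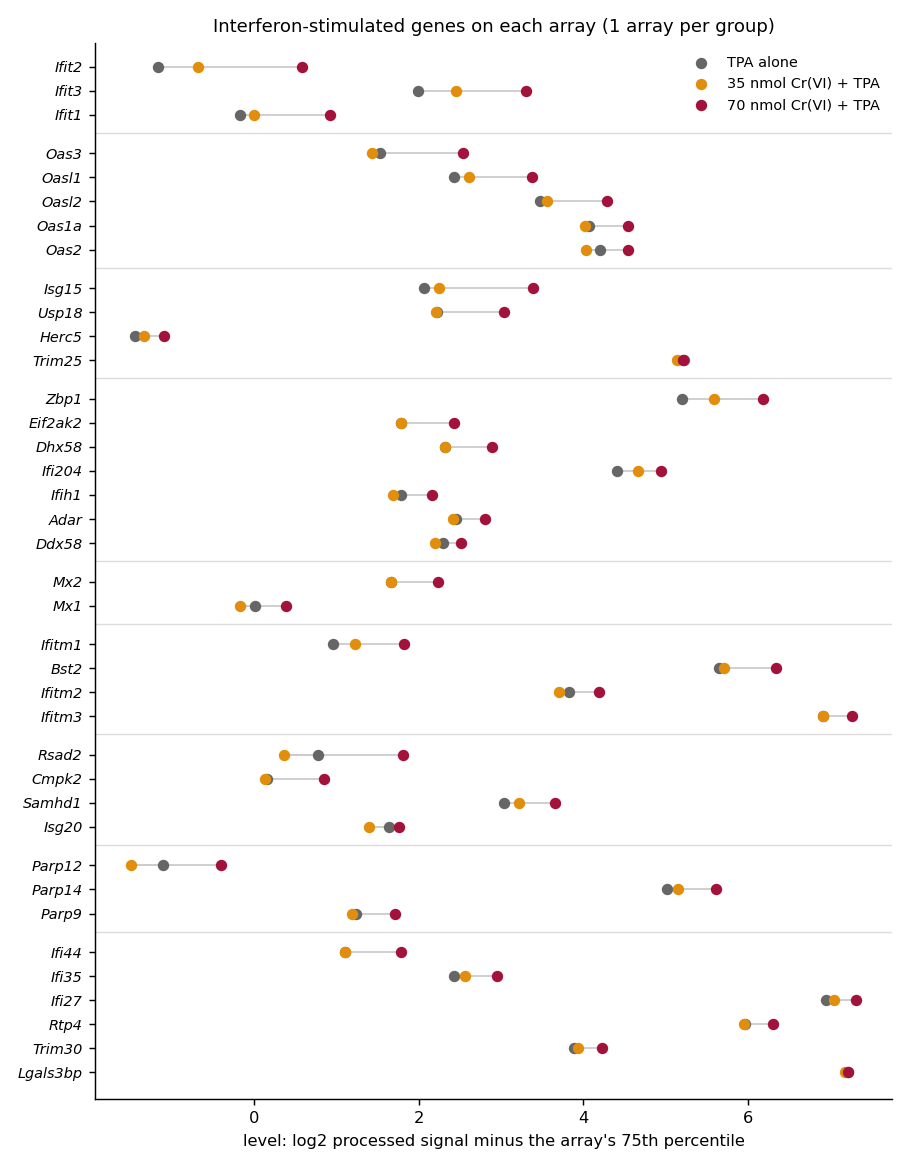
Levels of the 38 measured genes on the control, 35 nmol and 70 nmol arrays, as log2 processed signal minus the array's 75th percentile, 1 point per array, grouped by function. Ifi27 is drawn on its probe matched by symbol only. For 36 of the 38 genes the 70 nmol point lies furthest to the right; levels of different genes rest on different probes and are not comparable.

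Among the IFIT proteins, IFIT1 binds viral RNA that lacks host cap methylation and blocks its translation. All 3 Ifit genes were at least 2-fold higher at 70 nmol than in the control. These genes lie together on chromosome 19. Ifit2 stood at -1.17 in the control, -0.68 at 35 nmol and 0.59 at 70 nmol. The 70 nmol array was thus above both others, by 1.76 ± 0.21 over the control (scanner error, 3.38-fold) and by 1.27 over 35 nmol. A second, dimmer Ifit2 probe gave 1.51 and 1.48 for the same differences. The Ifit2 probe used is at chr19:34641751-34641810 (mm8, the array design's build), on the plus strand.

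Ifit3 stood at 1.99 in the control, 2.46 at 35 nmol and 3.30 at 70 nmol, a difference of 1.31 ± 0.20 at 70 nmol (2.47-fold). Ifit1 stood at -0.17, 0.00 and 0.93 on the same arrays, a difference of 1.10 ± 0.21 (2.15-fold). These 3 genes had the same order on the arrays, with the control lowest and 70 nmol highest, although spike-in scaling puts Ifit1 at 35 nmol below the control. Their differences at 35 nmol from the control were 0.18 for Ifit1, 0.46 for Ifit3 and 0.49 for Ifit2. The Ifit1 probe is at chr19:34715303-34715362 and the Ifit3 probe at chr19:34654612-34654671, on the plus strand in mm8.

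The OAS proteins make oligoadenylates on viral double-stranded RNA, which activate the nuclease RNase L. All 5 measured members were higher at 70 nmol than in the control, by 0.34 to 1.00, with Oas2 below 0 under spike-in scaling. Oas3 stood at 1.53 in the control, 1.44 at 35 nmol and 2.54 at 70 nmol. The control and 35 nmol arrays lay close together, and 70 nmol was 1.00 ± 0.20 above the control (2.01-fold) and 1.10 above 35 nmol. Its probe is at chr5:121014206-121014265 (mm8, minus strand), and a second Oas3 probe gave 0.58 above the control. Mouse Oas genes are close copies of each other, so a probe may read more than 1 of them.

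Oasl1, which represses translation of the Irf7 mRNA, stood at 2.43, 2.62 and 3.38 in the control, at 35 and at 70 nmol. Oasl2, a relative that still makes oligoadenylates, stood at 3.47, 3.56 and 4.29. Both were under 2-fold above the control at 70 nmol, by 0.94 and 0.82. Oas1a (4.06, 4.02 and 4.54) and Oas2 (4.21, 4.03 and 4.55) differed less, by 0.48 and 0.34, and both were lowest at 35 nmol. A second Oas2 probe, dim and not well above background at 35 nmol, gave -0.31 at 70 nmol.

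ISG15 is a ubiquitin-like protein that is attached to other proteins, HERC enzymes and TRIM25 attach such tags, and USP18 removes ISG15 and dampens the interferon receptor. Isg15 stood at 2.07 in the control, 2.24 at 35 nmol and 3.38 at 70 nmol. The 70 nmol array was 1.32 ± 0.20 above the control (2.49-fold) and 1.14 above 35 nmol. The array design places this probe on chr17:45870420-45870479 in mm8, whereas the RefSeq gene is on chromosome 4 in GRCm38.p6, and the probe was named through its transcript accession. Usp18 stood at 2.22, 2.21 and 3.04, so that only the 70 nmol array was apart, by 0.82 from the control.

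Herc5 (the Herc6 probe) differed by 0.35 at 70 nmol and by 0.11 at 35 nmol. A dimmer probe of it gave 0.65 at 70 nmol, -0.25 at 35 nmol and 0.90 between the doses. Trim25, which also ubiquitinates the RNA sensor RIG-I, was level at 5.22, 5.14 and 5.21 across the arrays, with a difference of -0.01 at 70 nmol. A dimmer Trim25 probe (0.34, 0.43 and 0.87) gave 0.53. On their brightest probes neither gene reached 1.5-fold in any comparison, and with spike-in scaling both lay below 0 at 70 nmol against control, whereas the dimmer Herc5 probe was past 1.5-fold at 70 nmol against both other arrays.

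The cytosolic sensors were higher at 70 nmol than in the control in all 7 cases, by 0.22 to 0.99, with Ddx58 and Adar at or below 0 under spike-in scaling, and none reached 2-fold on its brightest probe. Zbp1, a sensor of Z-form nucleic acid that triggers cell death, stood at 5.19 in the control, 5.59 at 35 nmol and 6.18 at 70 nmol. It was 0.39 higher at 35 nmol than in the control and 0.60 higher again at 70 nmol, or 0.99 in all, just under 2-fold. Ifi204, a DNA sensor, had the same order with 4.41, 4.67 and 4.94, a difference of 0.53 at 70 nmol. Its dimmer probes gave 0.68 and 1.34 at 70 nmol against control, and the latter, past 2-fold, gave 1.24 between the doses. Eif2ak2, the kinase PKR that halts translation on double-stranded RNA, stood at 1.79, 1.79 and 2.43, so that the control and 35 nmol arrays were level and 70 nmol was 0.63 above the control.

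The RIG-I-like receptors recognise viral RNA in the cytosol. Dhx58, which encodes the regulator LGP2, stood at 2.32, 2.32 and 2.89, a difference of 0.57 at 70 nmol. Ifih1, which encodes MDA5, differed by 0.38 at 70 nmol and -0.10 at 35 nmol. Ddx58, which encodes RIG-I, differed by 0.22 and -0.09. Adar, which edits adenosines in double-stranded RNA, differed by 0.36 and -0.04.

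The Mx GTPases trap viral ribonucleoproteins. Mx1 stood at 0.02, -0.17 and 0.39 in the control, at 35 and at 70 nmol, and Mx2 at 1.66, 1.66 and 2.23. Their differences at 70 nmol were 0.37 and 0.57 from the control and 0.55 and 0.57 from 35 nmol. Neither passed 1.5-fold, and Mx1 lay within 0.01 of the control under spike-in scaling.

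The IFITM proteins hinder fusion of viruses with cell membranes, and tetherin, from Bst2, holds budding virus at the surface. Ifitm1 stood at 0.96, 1.23 and 1.82, and was 0.85 above the control at 70 nmol. Bst2 stood at 5.65, 5.71 and 6.34, and was 0.68 above it. Ifitm2 and Ifitm3 differed by 0.37 and 0.35 at 70 nmol and by -0.12 and 0.01 at 35 nmol, and spike-in scaling put Ifitm3 just below 0 at 70 nmol. All 4 were highest at 70 nmol.

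Several listed genes encode enzymes that act on nucleotides or RNA. Rsad2, or viperin, makes a chain-terminating nucleotide, and it stood at 0.78 in the control, 0.36 at 35 nmol and 1.81 at 70 nmol. It was the listed gene furthest below the control at 35 nmol, and at 70 nmol it was 1.03 ± 0.20 above the control (2.05-fold) and 1.45 above 35 nmol (2.73-fold). Other Rsad2 probes, both dimmer, gave 0.84 and 0.29 at 70 nmol against control, and the first of these gave 0.10 at 35 nmol, so that the value below the control there rests on 1 probe. The probe used is at chr12:27029262-27029321 (mm8, minus strand).

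Cmpk2, the neighbour of Rsad2 and a nucleotide kinase that feeds it, stood at 0.16, 0.14 and 0.86, a difference of 0.69 at 70 nmol. A second, dimmer Cmpk2 probe gave 1.01, past 2-fold, and 0.12 at 35 nmol. Samhd1, which breaks down deoxynucleotides, differed by 0.62, but by -0.09 on a second probe. Isg20, an RNA exonuclease, stood at 1.65, 1.40 and 1.77 and differed by 0.12 at 70 nmol and -0.25 at 35 nmol. With spike-in scaling Isg20 lay below 0 at both doses against control.

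PARP family members attach ADP-ribose, and 3 were measured. Parp12 stood at -1.10 in the control, -1.49 at 35 nmol and -0.40 at 70 nmol. It was 2.12-fold higher at 70 than at 35 nmol (1.08), but under 2-fold above the control (0.70). Parp14 stood at 5.02, 5.15 and 5.61 and Parp9 at 1.24, 1.19 and 1.71. Their differences at 70 nmol from the control were 0.59 and 0.48.

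Of the remaining genes, Ifi44 stood at 1.11, 1.11 and 1.79, so that only the 70 nmol array differed, by 0.68. Ifi35 differed by 0.51 at 70 nmol, Rtp4, a receptor transporter, by 0.34, and Trim30, which restrains Toll-like receptor signalling, by 0.33. Lgals3bp, a secreted galectin-binding glycoprotein, was level at 7.22, 7.17 and 7.21. Spike-in scaling put Rtp4, Trim30 and Lgals3bp below 0 at 70 nmol.

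Ifi27 depended on the probe. The brightest, matched to Ifi27 by its symbol only and on the minus strand, stood at 6.94, 7.05 and 7.31 and gave 0.37 at 70 nmol. A probe matched to Ifi27 by accession, on the plus strand, stood at 5.04, 4.87 and 4.05. It gave -0.99 at 70 nmol against control and -0.82 between the doses. Which of these probes reads Ifi27 was not settled. Probes called Ifi27 in the files but matched to the neighbouring copy Ifi27l2a gave 0.27 and 0.35. Over the 18 listed genes with several measured probes at 70 nmol against control, the probes of 14 had the same sign and their median range was 0.30. The exceptions were Ifi27, Oas2, Samhd1 and Trim25. At 70 against 35 nmol the probes of 16 of 17 genes had the same sign, and at 35 nmol against control those of 8 of 17.

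**Figure D4:**
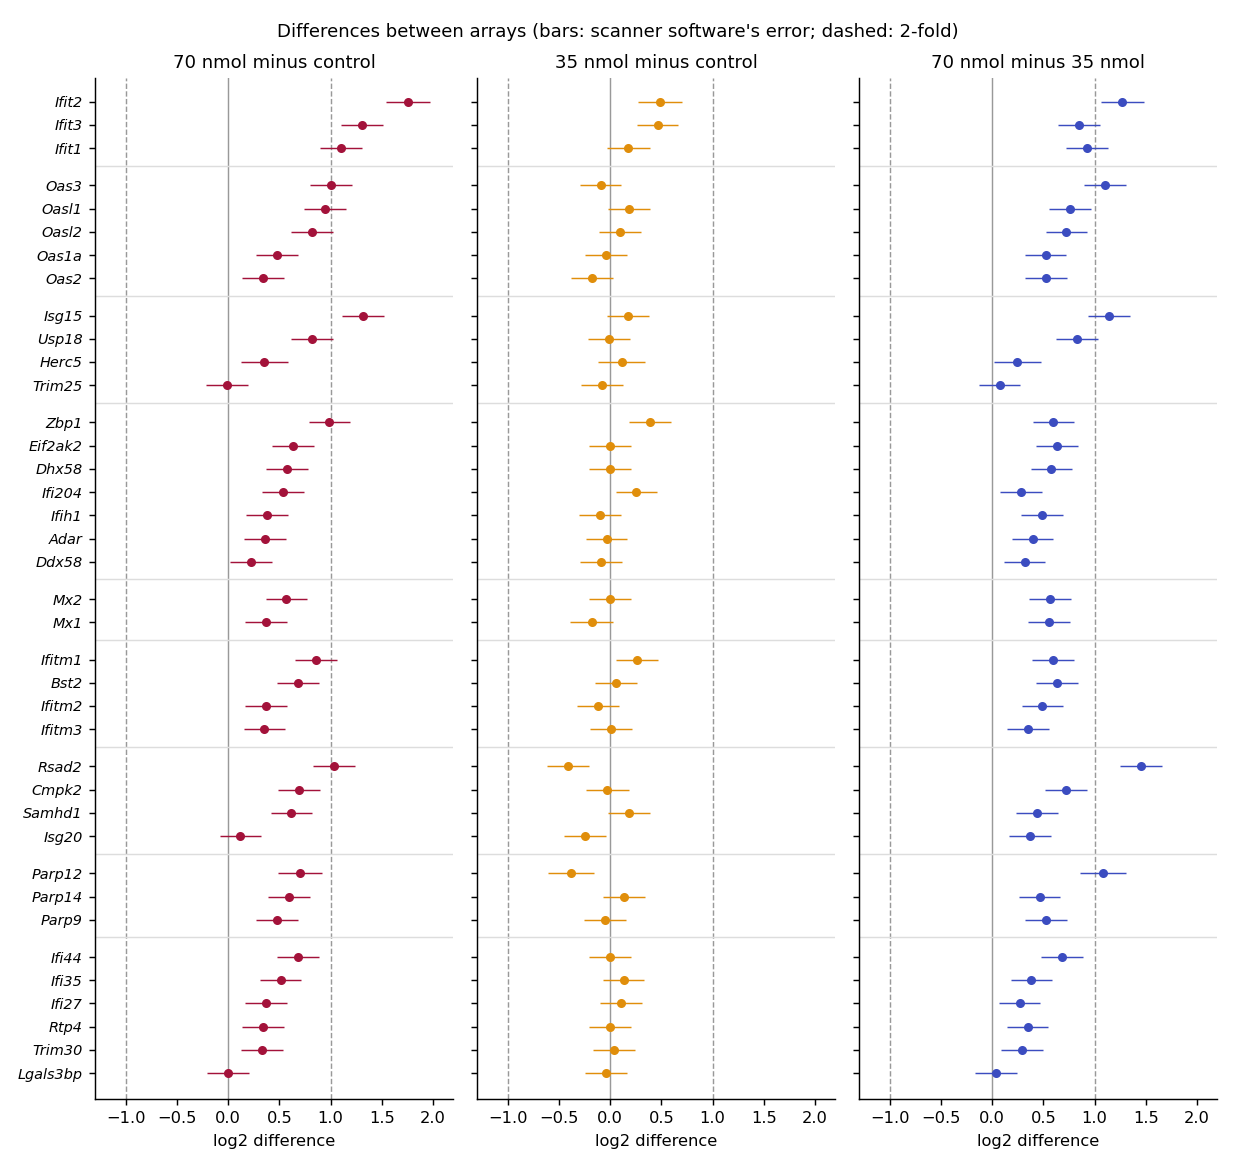
Log2 differences of the 38 genes in the 3 comparisons, grouped by function, with bars for the scanner software's error and dashed lines at 2-fold. Ifi27 is drawn on its probe matched by symbol only. The points of 70 nmol against control run from -0.01 to 1.76, those of 35 nmol against control from -0.42 to 0.49, and those of 70 against 35 nmol from 0.04 to 1.45; spike-in scaling leaves 28, 2 and 38 of them above 0.

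Ligands, receptors, transducers and upstream sensors of the interferon pathway each had a smaller median difference at 70 nmol than the listed genes. Among the ligands, Ifnb1, which encodes interferon beta, was not well above background on any array, and nor were 9 others of the 14 ligand genes on the array. The ligands measured in the comparisons were 2, Ifng and Ifnz. Ifng stood at -0.36 in the control, 0.07 at 35 nmol and -0.34 at 70 nmol. Ifnz, a dim probe, stood at -3.23, -2.90 and -2.76, a difference of 0.47 ± 0.36 at 70 nmol. Ifna9 and Ifnab were well above background in the control only. None of the ligands was 2-fold higher or lower. An mRNA of interferon beta was thus not detectable on these arrays 4 days after chromium.

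The receptor genes had a median difference of 0.19 at 70 nmol and 0.06 at 35 nmol over 5 measured of 6, with none at 2-fold. Ifnar1 differed by 0.05 and -0.04 and Ifnar2 by -0.33 and -0.22 at 70 and 35 nmol. Transducers and feedback genes, 12 of 12 measured, had medians of 0.22 at 70 nmol and 0.09 at 35 nmol, again with none at 2-fold. Stat2 stood at 3.63 in the control, 3.91 at 35 nmol and 4.41 at 70 nmol. Irf7, the factor that amplifies interferon production, stood at 4.43, 4.23 and 4.94, lowest at 35 nmol as were many of the listed genes. Irf9 (difference -0.05 at 70 nmol) and Irf3 (-0.07), whose protein is activated without new transcription, were level.

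Socs1, a feedback inhibitor of the receptor kinases singled out after its values were seen, stood at 3.69, 4.54 and 4.43, and so was highest at 35 nmol. Upstream sensors and adaptors, 13 of 15 measured, had medians of 0.29 at 70 nmol and 0.06 at 35 nmol and none at 2-fold. With spike-in scaling, which lowers each difference at 70 nmol alike, the medians of ligands, receptors, transducers and upstream sensors lay below 0 against the control.

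A further 32 interferon-induced genes that are not in the list had a median of 0.23 at 70 nmol, 0.09 at 35 nmol and 0.19 between the doses, so smaller at 70 nmol than the 0.57 of the listed genes. At least 2-fold higher at 70 nmol than in the control was 1 of 32, where 1.63% of all genes were. It was Ms4a4c, a membrane protein of the CD20 family, by 1.57. Between the doses Ms4a4c (1.43) and Slfn4 (1.02), a Schlafen protein of myeloid cells, were 2-fold higher (all genes 0.921%). None was 2-fold lower in any comparison. At 70 nmol 26 of 32 lay above 0 with percentile scaling, where 56.2% of all genes did.

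The GTPases induced chiefly by interferon gamma, 13 measured, attack the vacuoles of intracellular microbes. Their median was 0.71 at 70 nmol, 0.33 at 35 nmol and 0.36 between the doses. With percentile scaling, all 13 lay above the control at 70 nmol and 11 of 13 at 35 nmol, where 56.2% and 58.3% of all genes did. Iigp1 stood at 3.87, 4.57 and 4.97 and was the only member 2-fold above the control (1.10, all genes 1.63%). Ifi47 stood at 2.10, 1.52 and 2.78, 2-fold higher at 70 than at 35 nmol (1.27). At 35 nmol these GTPases had a median of 0.33 where the listed antiviral genes had 0.00, and at 70 nmol the medians were 0.71 and 0.57; the difference between the lists was not tested. Of 18 genes driven by NF-kB, 11 were measured at 70 nmol against control and 10 in each other comparison. Their medians were 0.24 at 70 nmol, 0.11 at 35 nmol and 0.30 between the doses. At 70 nmol 8 of 11 lay above the control (all genes 56.2%), and 1 of 11, the chemokine Ccl4, was 2-fold above it (1.52, all genes 1.63%). Under spike-in scaling the medians of the further interferon-induced and NF-kB genes at 70 nmol lay below 0, and that of the GTPases above it, though below 0 at 35 nmol.

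**Figure D5:**
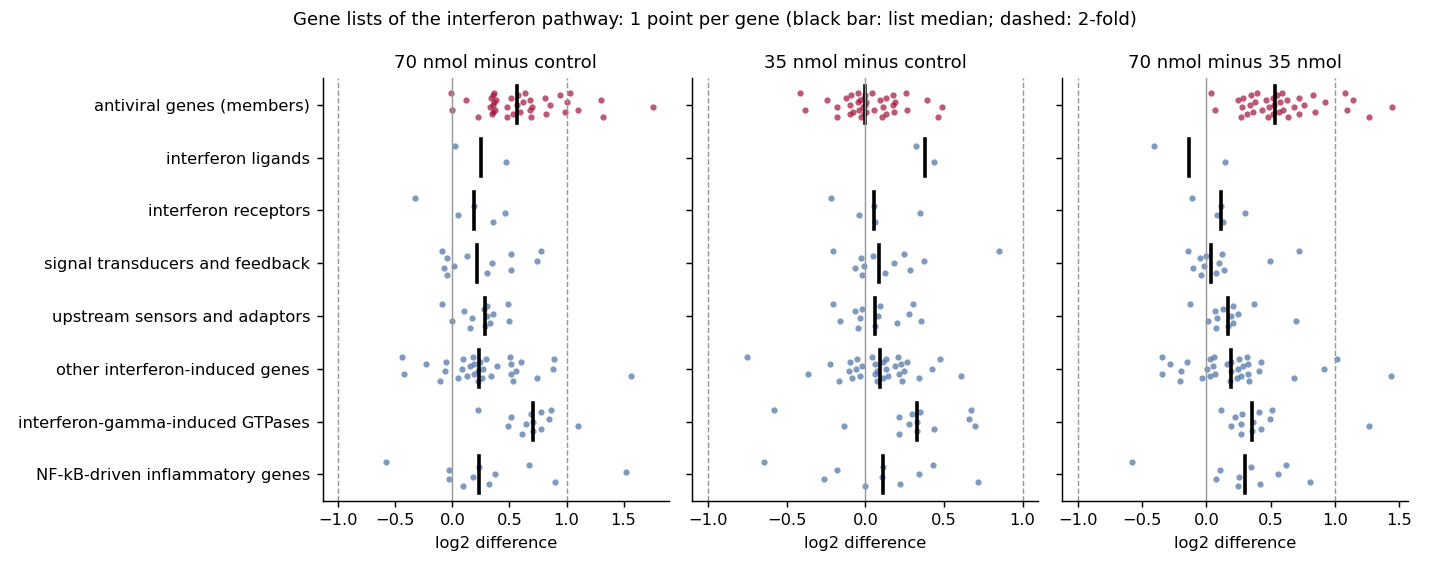
Log2 differences for the listed antiviral genes and for 7 lists of related genes, 1 point per gene, with black bars at list medians and dashed lines at 2-fold. Among the interferon lists with over 10 genes, medians at 70 nmol against control are 0.57 for the antiviral genes, 0.71 for the interferon gamma GTPases, 0.29 for the upstream sensors, 0.23 for the further interferon-induced genes and 0.22 for the transducers; spike-in scaling puts the last 3 below 0.

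In these bulk samples fewer cells of a type and less RNA per cell cannot be told apart, and markers of several cell types moved with the arrays. Summed over a list on the linear scale, in units of each array's 75th percentile, the macrophage markers other than Lyz2, whose probe was saturated, stood at 453 in the control, 457 at 35 nmol and 400.4 at 70 nmol. Of the 7 measured, 4 lay above the control at 70 nmol (all genes 56.2%), and the median difference was 0.04, as over all genes. The brightest of them, Adgre1, gave -0.51 and weighs most in the sum, whereas Fcgr1 gave 0.76. Markers of large peritoneal macrophages, the resident type, stood at 388, 358 and 220.4 without Icam2, whose probe was saturated. Of these, 6 of 9 measured were at least 2-fold lower at 70 nmol than in the control, where 1.08% of all genes were. Among the 6 were Gata6 (-1.08) and Alox15 (-1.65). Markers of monocytes and small peritoneal macrophages, which arrive from blood, stood at 147, 160 and 221. All 7 lay above the control at 70 nmol (all genes 56.2%), with F13a1 at 1.24. Fibroblast markers stood at 9.59, 10.9 and 32.7, with 4 of 4 measured 2-fold higher at 70 nmol, where 1.63% of all genes were. The part of these cell types in the interferon gene differences was not tested.

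Plasmacytoid dendritic cells are a main source of type I interferon. Of their markers Siglech and Klk1 were not well above background on any array, and the summed level was 51.3 in the control, 49.6 at 35 nmol and 43.5 at 70 nmol. The brightest marker, Ly6d, gave -0.31 at 70 nmol and -0.11 at 35 nmol. Of the 6 measured, 3 lay above the control at 70 nmol and 4 at 35 nmol (all genes 56.2% and 58.3%). Cox6a2 was 2-fold higher at 35 nmol (1.10). Mast cell markers stood at 35.0, 23.0 and 13.7, with 5 of 7 measured 2-fold lower at 70 nmol, where 1.08% of all genes were. B cell markers stood at 262, 253 and 205, and T and NK cell markers at 29.3, 29.6 and 30.3. Neutrophil markers stood at 6.81, 4.46 and 12.4, eosinophil markers at 2.25, 2.95 and 2.22, and mesothelial markers at 1.35, 1.65 and 1.65. The neutrophil markers did not move together. Against the control at 70 and 35 nmol, S100a9 gave 1.02 and -1.24 and Cxcr2 -1.39 and -2.07. Retnlg gave 1.03 and 1.98, and S100a8 0.46 and 0.11. Erythroid markers stood at 67.0, 11.6 and 35.3, lowest at 35 nmol. Hepatocyte markers stood at 21.1, 64.8 and 0.31, highest at 35 nmol and far below both other arrays at 70 nmol, where 1 of 7 was well above background. Their part in the result was not tested either.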

How the data were processed

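Per the file headers, Agilent Feature Extraction 10.5.1.1 gave the deposited spot intensities, with background subtracted, and probe positions are in mm8. The deposited table of log2 values equalled the log2 processed signal minus 1 constant per array (8.00, 7.61 and 7.67), within 0.01 for 99.9% of probes well above background, with column medians of -3.60, -3.74 and -3.78. Scale and direction are therefore known, and genes were not centred.

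Here log2 processed signals were scaled on each array's 75th percentile over spots other than controls (8.07, 7.69 and 7.74). Outlier spots were left out and repeated spots averaged. Names came from RefSeq through accessions (24375 probes), else current symbols (6301) or synonyms (2426), and 8072 kept the deposited name. Each gene was represented by the brightest of its probes that the scanner software flagged as well above background on at least 1 array. A comparison used it where that flag held on both arrays without saturation, and 2-fold was the threshold.

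All 40 listed genes are accounted for. From the related and marker lists, genes past 2-fold, main pathway genes and up to 4 genes per marker list could be named, and not every such gene is. Members, lists and rules were chosen with earlier results of these data known. Alternatives were normexp correction (offset 50), quantile, cyclic loess, median and spike-in scaling (the latter on 4 of 10 probes), the deposited table, other filters on dim probes, other probe rules, 1.5-fold and 3-fold thresholds, the list without close paralogs and, chosen after seeing the data, naming by accession only. The steps from scaled levels to differences and counts were tested on arrays simulated from the control array. Scaling, naming, probe choice and the spread between animals were not part of that test. Software was R 4.3.3, limma 3.58.1, Python 3.11.15, matplotlib 3.10.9, pandas 2.3.3 and numpy 2.4.6.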

Additional observations from a re-analysis of the deposited data

How the results depend on the processing

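With 1 array per group the precision is limited by the number of arrays, and leaving out an array leaves no comparison. No paired analysis was possible because each group has 1 array and no test was run. The count of listed genes at least 2-fold higher at 70 nmol than in the control, 6, became 3 with normexp correction, 1 with spike-in scaling, 18 at 1.5-fold and 1 at 3-fold. Between 70 and 35 nmol the count of 5 became 3 with normexp correction, 3 with a stricter filter on dim probes, 3 with the probe of smallest difference, 16 at 1.5-fold and 0 at 3-fold. In each other alternative run these counts stayed within 1.5 times, and that at 35 nmol against control was 0 throughout. The median of the listed genes minus that of all genes ranged from 0.46 to 0.55 at 70 nmol, from -0.07 to -0.03 at 35 nmol and from 0.50 to 0.56 between the doses. Spike-in scaling turned the split of all genes at 70 nmol from 204 higher and 136 lower to 87 and 400, and at 35 nmol from 143 and 38 to 71 and 251. Of 437 single-gene values per comparison, 383 at 70 nmol, 393 at 35 nmol and 426 between the doses moved by less than the scanner error. The cause of these changes was not tested. Dim probes, such as those of Ifit2, Herc5 and Parp12, carry the least signal over background.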
